A study of Mus musculus with 24 samples.

Results

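The 10 p53 target genes studied here were followed through calibrated RNA-seq (cRNA-seq) of mouse embryonic stem cells (ESCs) that lose the Polycomb repressive complex PRC1 or its catalytic activity. They are Mdm2, Ccng1, Bbc3, Pmaip1, Bax, Sesn2, Phlda3, Eda2r, Zmat3 and Trp53inp1, chosen by name as a readout of a stress response, and each was taken as the row of its symbol with the most reads. All 10 were found among the 20633 transcripts of the table, and all 10 were among the 16940 transcripts tested, for which 3 or more libraries had to hold 10 or more reads. Both lines are derived from E14 ESCs and carry Rosa26::ERT2-Cre, a Cre recombinase that 4-hydroxytamoxifen (OHT) switches on. PRC1CKO cells are Ring1a-/-; Ring1b fl/fl, so that untreated cells already lack RING1A and OHT removes RING1B. PRC1CPM cells carry the constitutive RING1A mutation I50A/D53K, and OHT replaces RING1B with the catalytically inactive I53A/D56K form, so that untreated cells already hold mutant RING1A beside normal RING1B. Each line was 1 clone, and cells were left untreated or given 800 nM OHT for 72 h, with 3 replicates in each of the 4 conditions. No library with Cre or OHT but intact PRC1 was analysed here, so effects of OHT or of Cre activity and effects of the change in PRC1 cannot be told apart. The 12 libraries held between 14668159 and 27016156 reads on genes.

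p53 is kept low in unstressed cells by the ubiquitin ligase Mdm2, itself a p53 target, and is stabilised by DNA damage and other stresses. Active p53 binds a pair of adjacent half-sites in DNA and switches on genes for feedback, growth arrest, metabolism and cell death, and the BH3-only proteins PUMA (Bbc3) and NOXA (Pmaip1) and the pore-forming protein Bax carry the death signal to mitochondria. ESCs hold much p53 and keep many of its targets expressed without added stress.

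To show the DNA to which the list owes its name, the best match to the p53 half-site consensus, as a pair with no spacer and with the fixed C and G of each unit kept, was taken within 2500 bases of each start in GRCm38 (mm10). The sequences below are from the RefSeq genome, read along the strand of the gene, with the 4-base core of each half-site in capitals. These 5 genes had the closest matches among the 7 with an entry in the RefSeq promoter table (Pmaip1, Zmat3 and Trp53inp1 had no entry).
Ccng1: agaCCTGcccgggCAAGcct
Bax: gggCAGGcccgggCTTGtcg
Eda2r: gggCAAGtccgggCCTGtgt
Mdm2: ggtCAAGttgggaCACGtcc
Bbc3: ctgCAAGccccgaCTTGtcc
The Ccng1 sequence, at chr11:40755462-40755481 on the minus strand, lies 185 bases upstream of the start and departs from the consensus at 1 base, as does 1 other match in that window. The Bax sequence, at chr7:45466574-45466593 on the minus strand, lies in intron 1 and departs at 2 bases. The Eda2r sequence, at chrX:97376534-97376553 on the minus strand, also lies in intron 1 and departs at 2 bases. The Mdm2 sequence, at chr10:117710105-117710124 on the minus strand and again in intron 1, departs at 3 bases. The Bbc3 sequence, at chr7:16309486-16309505 on the plus strand, lies 87 bases upstream of the start and departs at 3 bases. The best matches of Phlda3 and Sesn2 departed at 4 bases. Of 20630 windows around all starts of the table, 0.834% held a match with at most 1 departure, 5.21% one with at most 2, 22.1% one with at most 3 and 56.5% one with at most 4, on either strand. The matches are a description of the letters and not of binding. Of the 300 bases around the start (250 before, 50 after), Mdm2 held 35 CpG, Bbc3 34, Phlda3 26, Sesn2 23, Bax 19, Ccng1 14 and Eda2r 5, against a median of 7 over 32851 promoters.

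Before the results, the labels and the cells were checked. Rnf2, which encodes RING1B, read 1756, 1436 and 1385 normalised counts in untreated PRC1CKO, 1489, 1565 and 1585 after OHT, 1850.1, 1659 and 1578 in untreated PRC1CPM and 1724, 1295 and 1513 after OHT. Ring1, which encodes RING1A, lay between 111 and 313 in all 12 libraries. Its means were 227 untreated and 254 after OHT in PRC1CKO, and 162 and 140 in PRC1CPM. Counts over a whole gene body do not show the loss or exchange of an exon, so these values check nothing about the alleles. All 7 measured markers of pluripotent cells were expressed in every library, with a summed level between 30660.1 and 55796 normalised counts, and their most abundant gene was Esrrb or Zfp42. Sox2 fell by 0.89 and Utf1 fell by 0.79 on the log2 scale in PRC1CKO after OHT, and the other 5 did not pass the test. The 2 are 28.6% of these markers, beside 3.09% of all transcripts that fell. In PRC1CPM 0 of the 7 fell, beside 1.4% of all transcripts. Libraries also differed in their general level: the mean over all transcripts was 1209.6 in untreated PRC1CKO replicate 1 against 854 and 861 in replicates 2 and 3, and was 1071, 944 and 1015 after OHT. In PRC1CPM it was 1181, 925 and 964 untreated, and 1264, 868 and 1058 after OHT. Replicate 1 was therefore the highest of its condition each time, and among the untreated libraries it was also the highest for each of the 10 genes, except Sesn2 in PRC1CPM.

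After OHT, 1 of the 10 p53 target genes passed the test as higher: Pmaip1 rose in PRC1CKO and in PRC1CPM, and 0 of the 10 fell in either line (limma with Benjamini-Hochberg adjustment over all 16940 transcripts, adjusted p under 0.05 and over 1.5-fold). Against this, 16.5% of all transcripts rose and 3.09% fell in PRC1CKO, and 13.1% rose and 1.4% fell in PRC1CPM. The median log2 fold change of the 10 genes was 0.0092 in PRC1CKO (SD 0.26 over the 3 OHT libraries), beside a median of 0.12 over all transcripts, and 4 of the 10 lay above that. In PRC1CPM the median of the 10 was 0.22 (SD 0.22), beside 0.10 over all transcripts, with 5 of the 10 above it. For the count of 0 that fell, 1 gene (Bbc3) had an unadjusted p under 0.05 in PRC1CKO and 0 had in PRC1CPM, while edgeR called 1 gene lower in PRC1CKO and 0 in PRC1CPM, and DESeq2 called 0 in both. The OHT libraries lay wholly above the untreated ones for 1 of the 10 in PRC1CKO and 2 in PRC1CPM, beside 22.1% and 18.7% of all transcripts, and wholly below them for 0 of the 10 in each, beside 8.52% and 3.7%. All these values are relative to the fly spike-in, corrected for the mixing of cells by gDNA-seq. Without that correction the median of all transcripts in PRC1CPM was 0.39, 5 of the 10 (Mdm2, Ccng1, Pmaip1, Phlda3 and Trp53inp1) passed as higher in PRC1CPM, and 20.2% of all transcripts did. Under TMM and median-of-ratios scaling, the number of transcripts called higher in PRC1CKO was 2845 and 2827 beside 2787, while the number called lower was 1133 and 1159 beside 524, so that the share of higher among the called was 71.5% and 70.9% in place of 84.2%. In PRC1CPM 2396 and 2370 were called higher beside 2226, and 595 and 615 lower beside 237, with shares of 80.1% and 79.4% in place of 90.4%. In PRC1CPM, where same-numbered replicates deviated together, a fit with the replicate number as a block called 2 of the 10 higher, Pmaip1 and Phlda3, and 0 lower, beside 17.9% and 2.72% of all transcripts.

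**Figure D1:**
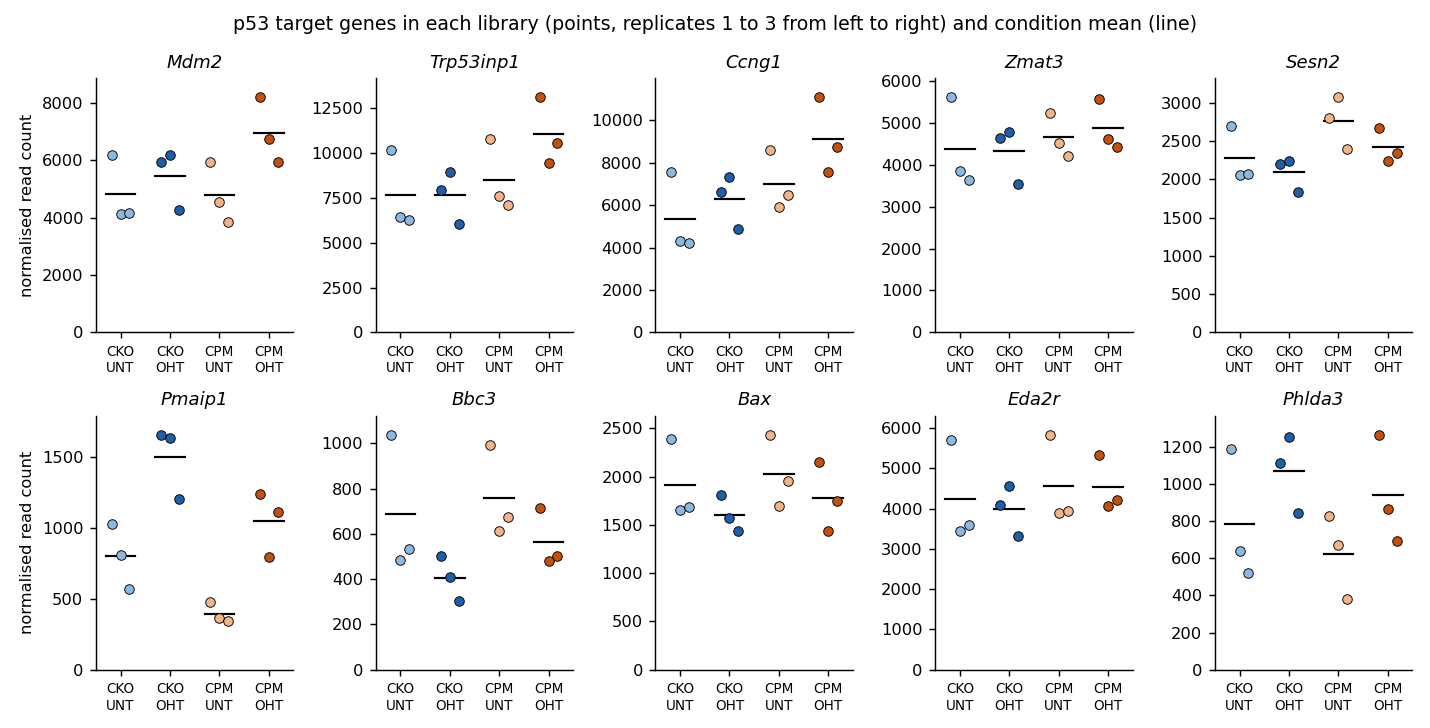
Normalised read count (linear axis from 0) of each of the 10 p53 target genes, 1 panel a gene, in the 12 libraries. Points are libraries of PRC1CKO (CKO) and PRC1CPM (CPM), untreated (UNT) or OHT-treated, and lines are means of 3; in both lines the OHT libraries clear the untreated ones for Pmaip1, while most other panels overlap and replicate 1 is often the highest.

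Mdm2, the ligase that turns p53 over, is the feedback arm of the pathway (chr10:117688875-117710758, minus strand). It read 6189, 4125 and 4144 normalised counts in the untreated PRC1CKO replicates and 5932, 6183 and 4248 after OHT. In PRC1CPM it read 5924, 4535 and 3857 untreated and 8188, 6727 and 5929 after OHT. The PRC1CKO groups overlapped, whereas in PRC1CPM the lowest OHT library stood just above the highest untreated one. The log2 fold change was 0.19 (SE 0.21, adjusted p = 0.658, limma) in PRC1CKO and 0.55 (SE 0.21, adjusted p = 0.0744) in PRC1CPM, and neither passed. Without untreated PRC1CPM replicate 1, the PRC1CPM value was 0.72 and passed, as it did without the gDNA correction (0.85). Trp53inp1, a stress-induced cofactor of p53, was at 7637 ± 2209 (SD, n = 3) in untreated PRC1CKO and at 7637 ± 1483 after OHT. In PRC1CPM its mean was 8487 ± 1981 untreated and 11047 ± 1868 after OHT, with overlapping libraries and a log2 fold change of 0.39 (95% interval -0.03 to 0.82, adjusted p = 0.277, limma). Each PRC1CPM OHT library was above the untreated library of the same number. The replicate block leaves the fold change as it is, under the 1.5-fold limit, so it could not call Trp53inp1.

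Ccng1, which encodes the cyclin G1 protein that acts with Mdm2, had the highest level per length of the 10 in all 4 conditions. It read 7579, 4332 and 4201 in untreated PRC1CKO, 6637, 7311 and 4873 after OHT, 8606, 5933 and 6501 in untreated PRC1CPM and 11092, 7556 and 8734 after OHT. Untreated and OHT libraries overlapped in both lines, although in PRC1CPM each OHT library was above the untreated library of the same number. The replicate block could not call Ccng1 in PRC1CPM, since it leaves the fold change as it is, under the 1.5-fold limit. Its log2 fold changes, 0.26 (SE 0.22) and 0.38 (SE 0.22), had adjusted p of 0.508 and 0.322 (limma). Zmat3, an RNA-binding protein, was at 4367 ± 1082 against 4322 ± 669.8 after OHT in PRC1CKO (SD, n = 3), and 4655 ± 534 against 4872 ± 613 in PRC1CPM. Its 95% intervals, -0.41 to 0.41 and -0.35 to 0.48 on the log2 scale, leave out a 1.5-fold change in either direction. Sesn2, a sestrin that restrains mTORC1 and is also induced by amino acid shortage, gave -0.12 (95% interval -0.53 to 0.30) in PRC1CKO and -0.18 (-0.60 to 0.23) in PRC1CPM. The signs of Zmat3 in both lines, of Trp53inp1 in PRC1CKO and of Sesn2 in PRC1CPM turned under at least 1 other scaling, so that no direction is given for them.

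Among the genes of the death pathway, Pmaip1 rose and Bbc3 gave negative values. Pmaip1 (chr18:66458604-66465558, plus strand), which encodes NOXA, read 1026, 807 and 569.9 normalised counts in untreated PRC1CKO and 1661, 1635 and 1203 after OHT. In PRC1CPM it read 479, 362 and 347 untreated and 1238, 797 and 1115 after OHT. Every OHT library was above every untreated library of its line. The log2 fold change was 0.93 (SE 0.24, adjusted p = 0.00325, limma) in PRC1CKO, or 1.90-fold, and 1.40 (SE 0.24, adjusted p = 2.03e-05) in PRC1CPM, or 2.63-fold. Without untreated PRC1CKO replicate 3, the lowest untreated library of that line, the PRC1CKO change was 0.70 with an adjusted p of 0.0751 (limma) and no longer passed. The PRC1CPM change passed in all 21 other fits.

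Bbc3, which encodes PUMA, read 1038, 485 and 534 in untreated PRC1CKO and 503, 408 and 302 after OHT (chr7:16309583-16318334, plus strand). In PRC1CPM it read 991, 612 and 672 untreated and 713, 479 and 503 after OHT. Untreated replicate 1 was high in both lines, and the groups overlapped in both, although in PRC1CPM, where the numbers pair the samples, each OHT library was below the untreated library of the same number. The log2 fold change was -0.70 (SE 0.27, adjusted p = 0.0583, limma) in PRC1CKO and -0.41 (SE 0.27, adjusted p = 0.419) in PRC1CPM. The PRC1CKO value lies at the edge of the threshold: it passed with TMM scaling (-0.82), with median-of-ratios scaling (-0.83), without the gDNA correction (-0.86), with edgeR (-0.76) and with each line fitted alone (-0.70), but was -0.36 without untreated PRC1CKO replicate 1. It also passed without untreated PRC1CKO replicate 2 (-0.91), OHT-treated PRC1CKO replicate 1 (-0.88), untreated PRC1CPM replicates 1 or 2, or OHT-treated PRC1CPM replicate 1 (-0.70 each). Bax gave -0.24 (95% interval -0.68 to 0.20) in PRC1CKO and -0.19 (-0.64 to 0.25) in PRC1CPM, with means of 1910.1 and 1605, and of 2029 and 1778 normalised counts; its sign in PRC1CPM turned without the gDNA correction.

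The remaining pair of genes code for a receptor and a signalling brake. Eda2r, a receptor of the TNF receptor family for the ectodysplasin A2 ligand, was at 4242 ± 1272 against 3991 ± 633 after OHT in PRC1CKO and 4562 ± 1106 against 4536 ± 688 in PRC1CPM (SD, n = 3), and its sign in PRC1CPM turned with TMM scaling. Phlda3, an inhibitor of Akt, read 1189, 641 and 521 in untreated PRC1CKO and 1113, 1253 and 843 after OHT. In PRC1CPM it read 825, 668 and 381 untreated and 1264, 862 and 693 after OHT. Both pairs of groups overlapped. The log2 fold change of Phlda3 was 0.52 (SE 0.27, adjusted p = 0.209, limma) in PRC1CKO and 0.62 (SE 0.27, adjusted p = 0.146) in PRC1CPM, and neither passed without a block; with the replicate block the PRC1CPM value passed (adjusted p = 0.000145, limma), all 3 OHT libraries being above the untreated library of the same number. Without untreated PRC1CKO replicate 1, the high library of its group, it passed in PRC1CKO at 0.87, and without untreated PRC1CPM replicate 1 it passed in PRC1CPM at 0.85.

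**Figure D2:**
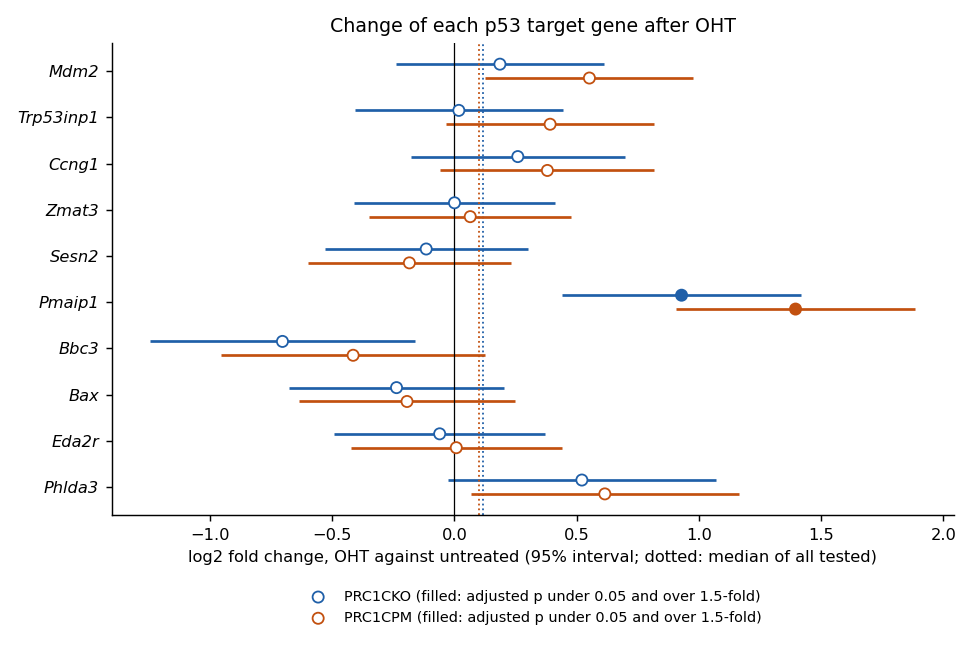
Log2 fold change (on log2 of normalised count plus 1, OHT against untreated) of the 10 p53 target genes in PRC1CKO and PRC1CPM, with 95% intervals from limma; dotted lines are the medians of all tested transcripts (0.12 and 0.10). Filled points passed the test: Pmaip1 in both lines, at 0.93 and 1.40, while Bbc3 lies lowest in both.

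The lines were then compared with each other, to ask whether the response depended on PRC1 being absent or only inactive. Of the 10 genes, 0 had a treatment effect that differed between the lines (limma interaction, adjusted p under 0.05), beside 0.0236% of all transcripts; 0 had an unadjusted p under 0.05, and edgeR and DESeq2 called 0. For Pmaip1 the effect in PRC1CPM exceeded that in PRC1CKO by 0.47 on the log2 scale, with a 95% interval of -0.23 to 1.16. Between the untreated lines, 1 gene differed: Pmaip1 was lower in PRC1CPM by a log2 difference of -0.99 (SE 0.24, adjusted p = 0.0138, limma), where 0.478% of all transcripts were lower and 2.21% higher. Its untreated PRC1CPM libraries, 347 to 479, lay below all untreated PRC1CKO libraries, 569.9 to 1026. That call was lost without untreated PRC1CPM replicate 3 (-0.90, adjusted p = 0.0862, limma) and with no filter on low counts (adjusted p = 0.135). Ccng1 joined it, as higher in PRC1CPM at 0.70, without untreated PRC1CKO replicate 1. Between the OHT-treated lines, 0 of the 10 differed, beside 1.25% of transcripts higher and 0.218% lower in PRC1CPM; 3 had an unadjusted p under 0.05 (Ccng1 and Trp53inp1 higher, Pmaip1 lower), and edgeR and DESeq2 called 0. Pmaip1 passed as lower with TMM and median-of-ratios scaling. As the lines are 1 clone each, a difference between them may be one of clones.

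Levels were compared between genes only per kb of gene body, introns included, since the counts cover whole gene bodies. In untreated PRC1CKO the order was led by Ccng1 at 797 ± 284 normalised counts per kb (SD, n = 3), followed by Trp53inp1 at 426 ± 123 and Bax at 367 ± 79.3. Phlda3 at 257 ± 117 and Mdm2 at 220.2 ± 54.2 came next. Zmat3, Sesn2, Pmaip1, Eda2r and Bbc3 lay between 141 and 78.3. Below Ccng1, neighbours in this order differed by less than the larger of their SDs, except Mdm2 and Zmat3. After OHT Bbc3 was the lowest in both lines, at 46.2 ± 11.5 and 64.6 ± 14.7, while in untreated PRC1CPM it was Pmaip1, at 57.0 ± 10.4. Over the 12 libraries, the mean profile of the 10 genes was most like those of Mmp2, Tef, Tubb6, Efs and Zfp422, with Pearson correlations from 0.955 to 0.973. The points share library, spike-in scale and general level: the profile correlated at 0.83 with the median of all tested transcripts, and 96.5% of tested transcripts outside the lists correlated positively with it.

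Further genes of the p53 pathway were counted in the same way. Of 37 further p53 targets tested (38 listed), 4 rose and 1 fell in PRC1CKO, and 6 rose and 0 fell in PRC1CPM. These are 10.8% and 16.2% of the list called higher, beside the 16.5% and 13.1% of all transcripts. With the replicate block in PRC1CPM, Fas, Dcxr and Ptpn14 were also called higher, 9 in all or 24.3% of the list, beside 17.9% of all transcripts. In PRC1CKO, where the numbers were not taken to pair samples, the same block called 8 higher (21.6%) and 2 lower (5.41%). Over all transcripts it called 20.3% higher and 4.86% lower there. Above 0 lay 26 of the 37 in PRC1CKO and 33 in PRC1CPM. The median of the list was 0.23 in PRC1CKO and 0.31 in PRC1CPM. Over all transcripts the medians were 0.12 and 0.10, so most of those also lay above 0, though their share was not counted. The quartiles of all transcripts were -0.15 and 0.52 in PRC1CKO and -0.12 and 0.47 in PRC1CPM. Cdkn1a, the cell cycle inhibitor that is the best known p53 target, read 2292, 1435 and 1474 in untreated PRC1CKO and 1989.6, 2056 and 1522 after OHT. In PRC1CPM it read 3052, 2258 and 1723 untreated and 4122, 2865 and 3082 after OHT. It overlapped between groups in both lines, with log2 fold changes of 0.12 and 0.54 (adjusted p = 0.813 and 0.116, limma). The PRC1CPM value passed without the gDNA correction and without untreated PRC1CPM replicate 1 (range over the other fits 0.34 to 0.83). Each PRC1CPM OHT library was above the untreated library of the same number. The replicate block could not call Cdkn1a, as its fold change, which a block does not alter, is under the 1.5-fold limit. Between the OHT-treated lines it was higher in PRC1CPM by 0.85 (adjusted p = 0.0357, limma), a call made in 13 of 20 other fits (range 0.69 to 1.02) and lost on leaving out any 1 OHT-treated PRC1CKO library or OHT-treated PRC1CPM replicates 1 or 3. With the replicate block Ddit4 and Dcxr were called higher between the untreated lines, and Ddit4 and Triap1 higher and Sesn1 lower between the OHT-treated lines. Btg2, an antiproliferative gene, rose in both lines, from 1274 ± 426 to 2261 ± 495 in PRC1CKO (log2 0.85) and from 1451 ± 330 to 2784 ± 679 in PRC1CPM (log2 0.94; SD, n = 3). Epha2, an ephrin receptor, rose by 0.87 and 0.79, Tap1, a peptide transporter for antigen presentation, by 0.96 and 0.94, and Perp, a desmosome protein, by 0.83 and 1.10. Plk2, a polo-like kinase, rose in PRC1CPM (0.85) and gave 0.62 in PRC1CKO, where it did not pass. Rprm, a cell cycle brake, rose in PRC1CPM (1.26) from few reads, at 12 to 86 a library. Gadd45a, which answers DNA damage, fell by 0.76 in PRC1CKO and gave -0.23 in PRC1CPM.

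Most of these calls were lost in at least 1 fit that left out a library. Some were lost although the change was as large or larger, such as Rprm without OHT-treated PRC1CPM replicates 2 or 3, so a loss need not mean that a call rests on that library. Leaving out untreated PRC1CKO replicate 3 ended the PRC1CKO calls of Btg2 (0.65), Epha2 (0.59), Tap1 (0.76) and Perp (0.55). Btg2 was also lost without OHT-treated PRC1CKO replicate 2 (0.73). Perp was also lost without untreated PRC1CKO replicate 2 (0.66), OHT-treated PRC1CKO replicates 1 (0.59) or 2 (0.79), or OHT-treated PRC1CPM replicate 2 (0.83). Leaving out untreated PRC1CPM replicate 3 ended the PRC1CPM calls of Epha2 (0.71), Tap1 (0.82), Perp (0.79), Plk2 (0.61) and Rprm (1.00). Leaving out OHT-treated PRC1CPM replicate 1 ended those of Epha2 (0.53), Tap1 (0.73), Perp (0.82), Plk2 (0.70) and Rprm (1.01). Tap1 was also lost without untreated PRC1CPM replicate 2 (0.74). Rprm was also lost without untreated PRC1CPM replicate 2 (1.28), OHT-treated PRC1CPM replicates 2 (1.41) or 3 (1.36), or OHT-treated PRC1CKO replicate 2 (1.26). The Btg2 call in PRC1CPM held in all 12 fits that left out a library, and that of Gadd45a was lost without untreated PRC1CKO replicate 2 (-0.71) or OHT-treated PRC1CKO replicates 2 (-0.72) or 3 (-0.75). Perp in PRC1CKO was also lost with edgeR and DESeq2, with TMM, median-of-ratios and uncorrected scaling and with a pseudocount of 0.1, as was Rprm in PRC1CPM with that pseudocount. Perp in PRC1CPM (1.07) and Tap1 in PRC1CKO (0.86) were lost with DESeq2. With no filter on low counts the calls of Btg2, Epha2, Tap1, Perp, Plk2 and Rprm were lost. Calls were also gained in some of the 21 other fits. In PRC1CKO they included Ddit4 as lower (10 fits) and Dcxr (8), Plk2 (7) and Fas (4) as higher. In PRC1CPM they included Fas (10) and Ptpn14 (7) as higher.

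Upstream of the targets, 18 genes of the p53 family and its regulators were tested (21 listed). In PRC1CKO 2 rose and 0 fell, and in PRC1CPM 1 rose and 0 fell, so that 11.1% and 5.56% rose, beside 16.5% and 13.1% of all transcripts. Trp53 itself was at 3257 ± 475 against 2602 ± 93.9 after OHT in PRC1CKO and 3266 ± 261 against 2969 ± 613 in PRC1CPM (SD, n = 3), with log2 fold changes of -0.31 and -0.16 that did not pass (adjusted p = 0.352 and 0.785, limma). Cdkn2a, the locus of the ARF inhibitor of Mdm2 and a long known Polycomb target, read 99.8, 45.4 and 42.3 in untreated PRC1CKO and 474, 361 and 363 after OHT. In PRC1CPM it read 182, 71.6 and 127 untreated and 435, 223 and 297 after OHT. Every OHT library exceeded every untreated one of its line, by a log2 fold change of 2.76 (adjusted p = 3.11e-09, limma) and 1.36 (adjusted p = 0.00218). The PRC1CPM call was lost with no filter on low counts (adjusted p = 0.0955, limma). These counts cover the whole locus and do not tell its 2 products apart. Trp63 was called higher in PRC1CKO from at most 14 reads a library, which edgeR and DESeq2 did not call, and was lost without untreated PRC1CKO replicate 1 (1.40) or OHT-treated PRC1CKO replicate 2 (1.85). For the other BCL2 family genes, of 11 tested (12 listed), 1 rose and 1 fell in PRC1CKO (9.09% each, beside 16.5% and 3.09% of all transcripts) and 0 passed in PRC1CPM. Bmf, a further BH3-only gene, fell by 0.91 in PRC1CKO and gave -0.48 in PRC1CPM, and Bcl2l1, which encodes the survival protein BCL-XL, rose by 0.67 in PRC1CKO and gave 0.50 in PRC1CPM. The Bcl2l1 call was lost in 11 of the 21 other fits, among them TMM scaling (0.55) and the fits without untreated PRC1CKO replicates 2 (0.68) or 3 (0.40) or OHT-treated PRC1CKO replicates 1 (0.49) or 3 (0.75); the Bmf call held in all 21.

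**Figure D3:**
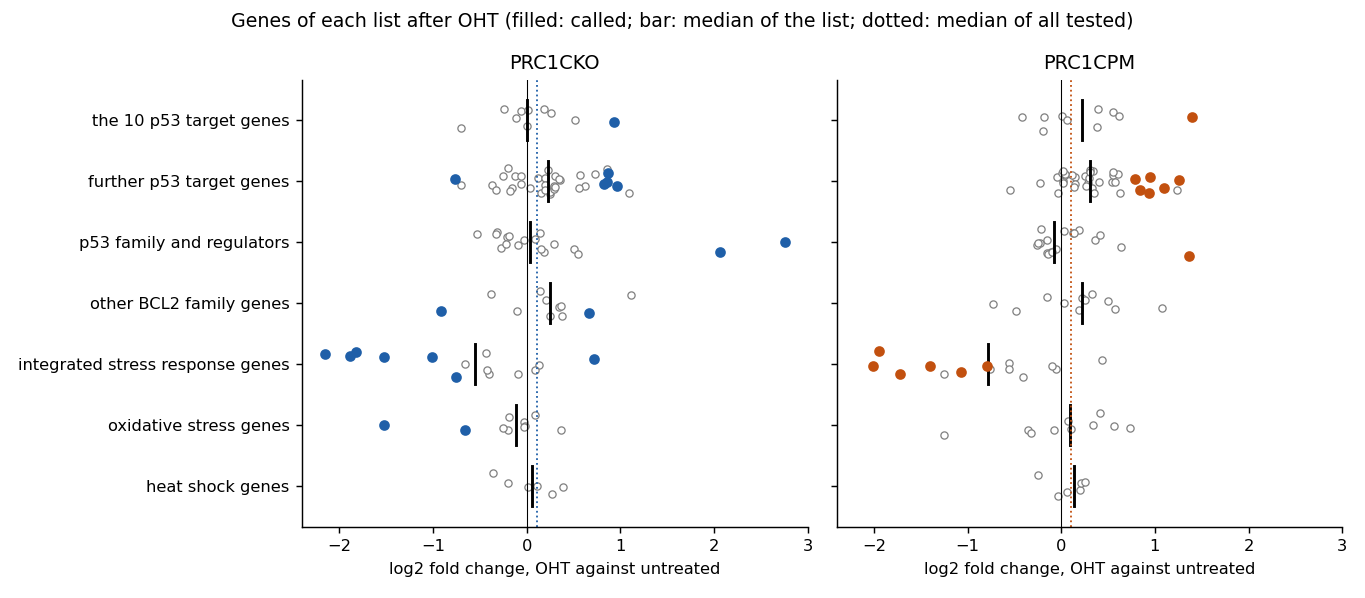
Log2 fold change (OHT against untreated, horizontal axis) of every tested gene of 7 lists (rows) in PRC1CKO (left) and PRC1CPM (right); filled points passed the test, bars are medians of the lists and dotted lines medians of all tested transcripts. The integrated stress response list lies furthest to the left in both lines, with medians of -0.55 and -0.78.

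Other stress programmes were set beside p53. The integrated stress response, in which ATF4 and CHOP (Ddit3) answer amino acid shortage and unfolded protein, held more genes that fell than rose: of 14 genes tested (15 listed), 6 fell and 1 rose in PRC1CKO, and 6 fell and 0 rose in PRC1CPM. The share that fell was 42.9% in each line, beside 3.09% and 1.4% of all transcripts. Its median was -0.55 and -0.78, with 11 and 13 of the 14 below 0. Chac1, a glutathione-degrading enzyme, read 447, 410.2 and 454 in untreated PRC1CKO and 61.5, 75.9 and 198 after OHT, and 900.1, 856 and 778 in untreated PRC1CPM against 176, 254 and 233 after OHT. Ddit3 read 779, 366 and 545 against 119, 155 and 163 in PRC1CKO, and 1243, 588 and 843 against 333, 222 and 233 in PRC1CPM. In both genes the groups were far apart in each line, with log2 fold changes of -2.15 and -1.94 for Chac1 and -1.89 and -1.72 for Ddit3. Nupr1, a stress-induced chromatin protein, gave -1.83 and -2.01, Trib3, a pseudokinase, -1.01 and -1.40, and Psat1, of serine synthesis, -0.75 and -0.79, all past the test in both lines. Atf5, a further ATF factor, passed in PRC1CPM (-1.07), and the cystine transporter Slc7a11 passed in PRC1CKO (-1.52) from 2 to 30 reads in each PRC1CKO library. Atf3, another ATF factor, was the gene that rose in PRC1CKO (0.72). Atf4 itself gave -0.44 and -0.56 and did not pass.

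The calls of Chac1, Ddit3 and Nupr1 in both lines, of Trib3 in PRC1CPM and of Psat1 in PRC1CKO held in all 21 other fits. That of Psat1 in PRC1CPM was lost without the gDNA correction (-0.50), and that of Trib3 in PRC1CKO without OHT-treated PRC1CKO replicate 1 (-0.80). Atf5 was lost without untreated PRC1CPM replicate 2 (-0.79) or OHT-treated PRC1CPM replicate 1 (-0.90), without the gDNA correction (-0.78) and with no filter on low counts. Slc7a11 was lost without untreated PRC1CKO replicate 1 (-1.33) or OHT-treated PRC1CKO replicate 2 (-0.64), with edgeR and DESeq2 and with no filter. With the replicate block in PRC1CPM, Vldlr and Slc7a11 were also called lower, 8 of the 14 in all or 57.1%, beside 2.72% of all transcripts. In PRC1CKO the same block called 7 of the 14 lower (50%), beside 4.86% of all transcripts. Atf3 was lost without untreated PRC1CKO replicates 2 (0.57) or 3 (0.78), or any 1 of OHT-treated PRC1CKO replicates 1 (0.70), 2 (0.79) and 3 (0.66), and without the gDNA correction (0.56). Of 10 oxidative stress genes, 2 fell in PRC1CKO, where 3.09% of all transcripts fell: Slc7a11 again and Gclm (-0.66), a subunit of the glutathione-making ligase, and 0 passed in PRC1CPM; Gclm was lost without untreated PRC1CKO replicate 1 (-0.53) or any 1 OHT-treated PRC1CKO library (-0.66 each). The block also called Nqo1 higher and Slc7a11 lower among these in PRC1CPM (10% each). It called Bcl2 higher and Hrk lower among the BCL2 family genes there (9.09% each), beside 17.9% higher and 2.72% lower over all transcripts. Of 6 heat shock genes tested (9 listed), 0 passed in either line. Of all transcripts, 16.5% rose and 3.09% fell in PRC1CKO, and 13.1% rose and 1.4% fell in PRC1CPM. Hspa1a, Hspa1b and Hspb1 were not measured, so the count does not speak for them.

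Markers of other cell types were measured in the same libraries, where 16.5% of all transcripts rose in PRC1CKO and 13.1% in PRC1CPM. The shares of all transcripts that fell were 3.09% and 1.4%. Of 6 markers of primitive endoderm, an early extraembryonic lineage, 4 rose in PRC1CKO and 6 in PRC1CPM, among them Gata6 (2.96 and 2.26), Gata4 (2.14 and 1.63) and Foxa2 (2.80 and 2.87) in both lines. Their summed level was 1235, 722 and 434 normalised counts in untreated PRC1CKO and 2975, 2301 and 2208 after OHT, and 583, 577 and 468 in untreated PRC1CPM and 1646, 1120.3 and 1436 after OHT. Dab2 or Gata6 was the most abundant gene, and none was at 0. Of 4 markers of neural progenitors, 3 rose in PRC1CKO and 2 in PRC1CPM, with summed levels of 546 to 1356 untreated and 1754 to 2014 after OHT in PRC1CKO, and 935 to 1231 and 1117 to 2281 in PRC1CPM. Nes was the most abundant of these, and Neurog2 was at 0 in 3 untreated libraries. Fibroblast markers, led by Col1a1, stood apart in replicate 1 of PRC1CPM, with sums of 15417 untreated and 16196 after OHT, beside 4015 to 7016 in the other 4 PRC1CPM libraries and 2289 to 6362 in PRC1CKO. Untreated PRC1CPM replicate 1 is also the library without which Mdm2, Phlda3 and Cdkn1a passed in PRC1CPM. The part of these markers in that was not tested. Of 6, 2 rose in PRC1CKO and 1 in PRC1CPM, Twist2 in both (2.31 and 2.16). Of 3 trophoblast markers tested (4 listed), 1 rose and 1 fell in PRC1CKO and 2 rose in PRC1CPM, with Eomes higher in both (1.57 and 1.31); their sums ran from 998 to 1720.0, led by Tfap2c, and Elf5 was at 0 in 1 library. Of blood and endothelial markers, Kdr rose and Pecam1 fell in both lines, sums ran from 1372 to 7721, led by Pecam1, and Ptprc was at 0 in 6 libraries and had 2 reads at most in any. Of these marker calls, those of Sox17, Neurog2, Dab2, Cdx2, Tfap2c and Thy1, and that of Pax6 in PRC1CPM, were lost on leaving out at least 1 library, and Nes in PRC1CKO with no filter on low counts. Cdx2 in PRC1CPM was lost as well with TMM, median-of-ratios, edgeR, DESeq2, no filter and a pseudocount of 0.1, Thy1 in PRC1CKO with TMM, median-of-ratios and uncorrected scaling, Dab2 with DESeq2, no filter and that pseudocount, Neurog2 in PRC1CPM with no filter and that pseudocount, Pax6 in PRC1CPM and Sox17 in both lines with no filter, and Sox17 in PRC1CKO without the gDNA correction. The block in PRC1CPM added Pdgfrb as higher and Col1a2 as lower. With it 33.3% of the fibroblast markers were higher and 16.7% lower, beside 17.9% and 2.72% of all transcripts. Fewer cells of a type and less RNA per cell cannot be told apart in these bulk libraries, and the part of such markers in the change of Pmaip1 was not tested.

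**Figure D4:**
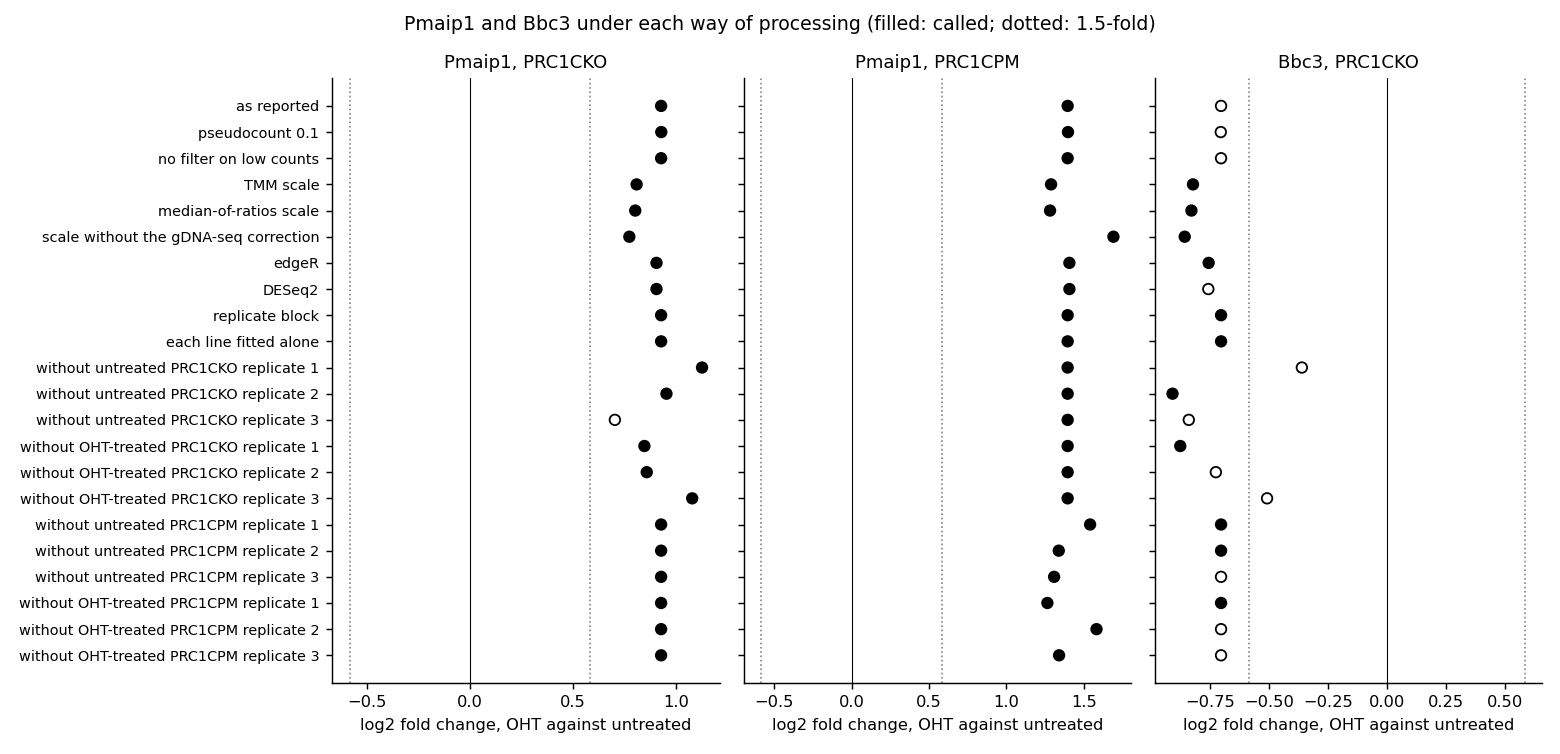
Log2 fold change (OHT against untreated, horizontal axis, scale differing between panels) of Pmaip1 in PRC1CKO, Pmaip1 in PRC1CPM and Bbc3 in PRC1CKO as reported and in 21 other fits (rows); filled points passed the test and dotted lines mark 1.5-fold. Pmaip1 keeps its sign in every fit, from 0.70 to 1.13 in PRC1CKO and 1.26 to 1.69 in PRC1CPM, and Bbc3 passes in 11 of 21 fits, from -0.91 to -0.36.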

How the data were processed

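Total RNA of ESCs mixed with Drosophila SG4 cells was depleted of rRNA and sequenced as paired reads, with matched genomic DNA (gDNA-seq) of each mixture. The authors discarded rDNA reads with Bowtie 2, aligned the rest to mm10 and dm6 with STAR and then Bowtie 2, removed PCR duplicates with Sambamba, counted reads per gene body of refGene transcripts, and divided each library's counts by 1 DESeq2 size factor from the fly genes, corrected with gDNA-seq. Whether counting used strand is not stated, so overlapping and antisense genes may share reads. The deposited signal is therefore normalised counts, not raw ones. Whole reads were recovered from it (100% of values within 0.02 of a whole read). Of recovered counts from 1 to 19, 79.6% were even, against 51.5% of counts of 1000 or more, so both reads of a pair may be counted in many cases and reads are not all independent molecules. The deposited columns of fold changes and p-values, and a deposited list of transcripts, were not used, and the 12 gDNA-seq samples have no values of their own here.

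The main test, in R 4.3.3, was limma 3.58.1 on log2 of the normalised count plus 1, two-sided, with a mean-variance trend and 4 condition means over all 12 libraries. A transcript was tested if 3 or more libraries held 10 or more reads of it, with Benjamini-Hochberg adjustment over all those tested, and called at adjusted p under 0.05 and over 1.5-fold (interaction: adjusted p alone). Fold changes are on that log2 scale and understate those of low genes. edgeR 4.0.16 and DESeq2 1.42.0 on recovered reads, other scales, filters and pseudocounts, and leaving out each library were alternatives; the fits were tested on simulated data. Replicate numbers were taken to pair samples where the residuals of all 3 same-numbered pairs of a comparison correlated above 0.1: in PRC1CPM (0.246 to 0.438), between the untreated lines (0.186 to 0.377) and between the OHT-treated lines (0.140 to 0.225), but not in PRC1CKO (0.0988 to 0.179); the labels name no shared batch. Named were all members, called genes of each list, Cdkn1a, Trp53, Ring1 and Rnf2, and the 5 genes of most similar profile; other genes were named after their values were seen. Lists were matched by symbol, or by RefSeq accession for a renamed gene. The members and lists were chosen with earlier results of these data known. The paper calls the replicates biological. Replicates of a line are of 1 clone, and the labels do not say how they were separated. The p-values therefore measure only the spread between these samples, part of which may be technical.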

Additional observations from a re-analysis of the deposited data

How the results depend on the processing

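For the counts and medians over the 10 genes, 168 alternative values stayed within 1.5 times the reported count or 1 SD of the reported median and 24 did not. For the 10 genes singly, OHT against untreated, 368 alternative values kept their sign and their side of the threshold, 32 turned sign, 19 passed the test where the reported value did not, and 1 lost its call; between the untreated lines Pmaip1 lost its call in 2 fits and Ccng1 gained one in 1, and between the OHT-treated lines Pmaip1 gained one in 2. The count of genes higher in PRC1CKO (1) was 0 at over 2-fold and 0 to 2 on leaving out a library. The count lower in PRC1CKO (0) was 1 with TMM, with median-of-ratios, without the gDNA correction, with edgeR and with each line fitted alone, and 0 to 1 on leaving out a library; the gene was Bbc3. The count higher in PRC1CPM (1) was 5 without the gDNA correction and 1 to 3 on leaving out a library, and the PRC1CPM median (0.22) was 0.52 without that correction. The count differing between untreated lines (1) was 0 with no filter on low counts, 0 at over 2-fold and 0 to 2 on leaving out a library, and that between OHT-treated lines (0) was 1 with TMM and 1 with median-of-ratios. The 2-fold limit was not applied to the interaction, which has none. With TMM, median-of-ratios and uncorrected scaling, PRC1CKO values turned to -0.12, -0.13 and -0.15 for Zmat3 and to -0.10, -0.11 and -0.14 for Trp53inp1. In PRC1CPM they turned to -0.10 and -0.11 for Eda2r and -0.043 and -0.049 for Zmat3 with TMM and median-of-ratios, and to 0.10 for Bax and 0.11 for Sesn2 without the correction. With edgeR and DESeq2 they were -0.014 for Zmat3 in PRC1CKO and -0.0081 for Eda2r in PRC1CPM. On leaving out a library, signs turned in PRC1CKO for Sesn2 (-0.18 to 0.013), Eda2r (-0.19 to 0.17), Zmat3 (-0.12 to 0.19) and Trp53inp1 (-0.11 to 0.24), and in PRC1CPM for Eda2r (-0.11 to 0.20) and Zmat3 (-0.036 to 0.15). The cause of these shifts was not tested.

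In PRC1CKO, 1 of 3 same-numbered pairs fell just short of the limit for pairing (r 0.0988), so the numbers were not taken to pair samples there. Pairs of unlike number in that line correlated from -0.116 to -0.0218, so whether its samples are paired is not settled. With the replicate block, 1 gene (Bbc3) was lower in PRC1CKO, where calls over all transcripts went from 2787 to 3435 higher and from 524 to 823 lower, and 2 were higher in PRC1CPM; it changed no other call of the 10 genes. Fits without 1 library leave a condition with 2. Values of genes such as Trp63, Rprm, Slc7a11, Neurog2, Foxa2, Sox7, Sox17 and Cdx2 rest on few reads in at least 1 condition, which limits their precision.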

Other observations

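Between the untreated lines, 3 of 14 integrated stress response genes were higher in PRC1CPM (21.4%, beside 2.21% of all transcripts) and 0 lower, with a median log2 difference of 0.62 beside 0.12 over all transcripts and all 14 above 0. The 3 were Atf3 (1.13), the lipoprotein receptor gene Vldlr (1.14) and Slc7a11 (2.08), which is also on the oxidative stress list. Vldlr was lost without untreated PRC1CKO replicates 2 (0.92) or 3 (1.03), and Slc7a11 without untreated PRC1CKO replicate 3 (1.99). Atf3 and Vldlr were lost without the gDNA correction (0.85 each), and Vldlr and Slc7a11 with no filter on low counts. Of the p53 family and regulators, Trp63 was higher in untreated PRC1CPM (2.87), from at most 22 reads in any untreated library, a call made in 19 of 20 other fits and lost with no filter. Of the other BCL2 family genes, the BH3-only gene Hrk was higher (1.06), a call made in 8 of 20 other fits and lost on leaving out any 1 library except untreated PRC1CKO replicate 1 and OHT-treated PRC1CPM replicates 1 and 2 (range over all fits 0.78 to 1.17).

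Among markers, Sox7 of the primitive endoderm was lower in untreated PRC1CPM (-2.26), a call that held in all 20 other fits. Sox1 of neural progenitors was lower (-1.40) and Col1a2 of fibroblasts higher (1.38), calls lost without untreated PRC1CKO replicate 3 (-1.46 and 1.30) or untreated PRC1CPM replicate 1 (-1.03 and 0.84) and with no filter on low counts. Sox1 was also lost without untreated PRC1CPM replicate 3 (-1.35), and Col1a2 with DESeq2. Between the OHT-treated lines, Gata6 was lower in PRC1CPM (-1.78) and Col1a1 higher (1.44); the first was lost with no filter on low counts, and the second was called in 14 of 20 other fits and lost without OHT-treated PRC1CPM replicate 1. Chac1 (1.16) and Slc7a11 (2.35) were also higher in OHT-treated PRC1CPM. Chac1 was called in 11 of 20 other fits (range 0.83 to 1.66) and lost without OHT-treated PRC1CKO replicates 1 or 2 or OHT-treated PRC1CPM replicates 2 or 3, and with TMM, median-of-ratios, edgeR, DESeq2 and no filter. Slc7a11 was called in 18 of 20 (range 1.46 to 3.09) and lost without OHT-treated PRC1CKO replicate 2 and with no filter.

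With the replicate block, 9.63% of all transcripts were higher and 1.49% lower between the untreated lines. There it added Ddit3, Trib3, Chac1, Nupr1, Trp73, Cdkn2a, Col1a1, Nes and Pecam1 as higher, with 7 of 14 integrated stress response genes then called, and Gata6, Cdx2 and Tfap2c as lower. Between the OHT-treated lines 6.68% of all transcripts were higher and 1.37% lower with the block. It added Ddit3, Atf3, Nupr1, Col1a2 and Pecam1 as higher and Gata4, Cdx2 and Pax6 as lower. Ring1, read for the check of labels, was also called lower in OHT-treated PRC1CPM with the block.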
